A study of Mus musculus with 21 samples.

Results

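The antiviral effectors described here are 41 interferon-stimulated genes of the mouse, picked by symbol out of the 55487 genes in the count table. The list holds the IFIT and OAS families, the membrane restriction factors, the MX proteins, the ISG15 pathway and other effectors. It leaves out the interferon-inducible GTPases, the Schlafen and p200 families, and the IRF and STAT factors. All 41 were found in the table, and 40 had enough reads for the test. Ifi44, which encodes a cytoplasmic interferon-induced protein, did not pass the filter: its highest level in any library was 0.831 CPM (counts scaled to the depth of the library).

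The libraries came from microglia, the resident macrophages of the brain, sorted from the striatum of male mice aged 8 to 10 weeks. Control offspring (CON) and offspring of the maternal immune activation group (MIA) had received either saline or lipopolysaccharide (LPS, a bacterial cell wall component) into the peritoneum, the latter at 4500 endotoxin units per gram of body weight, and cells were collected 18 hours later. Live cells positive for CD11b and P2RY12 and low for CD45 were sorted. In the batch labelled 1 there were 6 control libraries after saline and 5 after LPS, and 5 MIA libraries after saline and 3 after LPS. A further MIA LPS library (replicate 4) was the only one of batch 2, so a batch term in the fit took up its values, and they are given apart. One MIA saline library (replicate 6), whose title marks it as excluded, was left out. The labels name neither the strain nor the agent or day of the maternal treatment, and litters are not marked in them. A number in the ID label, whose meaning is not stated, is shared by several libraries: the 8 MIA libraries of batch 1 carry 3 such numbers and the 11 control libraries 6. The tests treat the libraries as independent. The p-values therefore measure the spread between these libraries only.

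Type I interferon binds its receptor, activates the kinases JAK1 and TYK2, and through STAT factors and IRF9 switches on genes whose promoters carry an interferon-stimulated response element. Their products act at many steps of a viral life cycle: entry, RNA sensing, translation, nucleotide supply and protein modification. LPS reaches the same genes through TLR4, the adaptor TRIF and IRF3, which induce interferon beta. Microglia make these proteins at low levels at rest and are among the brain cells that produce and answer interferon.

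The core of that response element, GAAA and GAAA with any 2 bases between them, on either strand and with overlapping matches counted, was searched in RefSeq promoter windows of GRCm38.p6 reaching from 250 bases before to 50 bases after each transcript start. Windows were found for 33 of the 41 genes. These genes had 40 windows, and the core lay in 16 of them (40%), from 15 genes, against 3.44% of all 32851 windows. The gamma-activated site core TTCNNNGAA, also on either strand, lay in 8 of the 40 windows (20%), against 8.30% of all windows. The stretches below come from before the start of 8 genes on which later results turn: the gene with the most matches (Isg15), 1 of the highest at rest (Bst2), 2 strong responders (Ifit1, Ifitm2), and 2 pairs of near-identical copies that differed in their counts. They are written 5′ to 3′ on the gene's own strand, with the matches in capitals (those that begin with TTTC are the same core read from the opposite strand).
Isg15 (chr4:156200855-156200916, minus strand): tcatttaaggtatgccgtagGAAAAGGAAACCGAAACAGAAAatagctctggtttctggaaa
Bst2 (chr8:71537567-71537622, minus strand): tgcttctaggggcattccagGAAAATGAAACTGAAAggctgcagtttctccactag
Ifit1 (chr19:34640765-34640833, plus strand): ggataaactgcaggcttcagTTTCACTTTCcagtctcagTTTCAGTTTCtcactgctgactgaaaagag
Ifitm2 (chr7:140955978-140956027, minus strand): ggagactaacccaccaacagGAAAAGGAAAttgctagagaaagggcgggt
Ifit3 (chr19:34583387-34583436, plus strand): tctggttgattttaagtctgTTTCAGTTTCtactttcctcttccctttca
Ifit3b (chr19:34607783-34607832, plus strand): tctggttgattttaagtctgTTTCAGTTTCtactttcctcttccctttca
Oas1a (chr5:120907526-120907565, minus strand): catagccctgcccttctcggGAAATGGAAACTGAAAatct
Oas1g (chr5:120887614-120887651, minus strand): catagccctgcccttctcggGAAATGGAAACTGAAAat

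Isg15 held 3 overlapping matches, and the 50 bases shown for Ifit3 and Ifit3b were identical, as were the 38 bases shown for Oas1g and the matching bases of Oas1a. A match in the window did not go with a larger LPS response. The median log2 fold change in control offspring was 1.37 for the 15 tested genes with the core and 2.13 for the 17 without it. Oasl1, Helz2 and Samd9l, whose levels changed strongly, had no match within their windows. Such a match is a description of letters and says nothing on which factor was bound.

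Total estimated counts ran from 9845792 to 18990010 in the 19 libraries of batch 1. The microglial markers were present throughout, with 8 genes summing to between 11292 and 15413 CPM after saline and between 4294 and 6670 CPM after LPS. P2ry12, the antigen of the sort, fell by 3.39 ± 0.17 (SE) on the log2 scale with LPS in control and by 3.33 ± 0.21 in MIA offspring, while Itgam, the gene of CD11b, was not called. Markers of infiltrating cells moved with LPS. Of 6 tested monocyte markers 5 were higher and Ccr2 was lower in both maternal groups, and 6 (control) and 7 (MIA) of 7 tested neutrophil markers were higher. The 7 monocyte markers summed to between 2.54 and 6.30 CPM after saline and between 17.4 and 52.2 CPM after LPS. Neutrophil marker sums were between 0.155 and 17.8 CPM in control saline and between 0.200 and 0.321 CPM in MIA saline libraries. After LPS they were between 35.5 and 113 CPM. In MIA against control offspring after saline, 5 of the 7 tested neutrophil markers had an unadjusted p under 0.05 by edgeR, and 0 were called. The neutrophil marker Retnlg was at 0 in every saline library of batch 1. Lymphocyte markers summed to at most 0.408 CPM, and Cd3e was at 0. The part of these cells in the results below was not tested, and in bulk samples fewer cells of a type and less RNA per cell cannot be told apart.

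LPS raised most of the antiviral genes in both maternal groups. In control offspring 34 of the 40 tested genes were higher after LPS and 0 were lower by edgeR's quasi-likelihood test at an adjusted p under 0.05. Over all 14741 genes tested, 23.3% were called higher and 21.3% lower. In MIA offspring 36 of 40 were higher and 0 lower, against 20.8% called higher and 18.3% called lower of all genes. The median log2 fold change of the 40 genes was 1.98 in control and 2.36 in MIA offspring, while over all genes it was -0.00 and 0.02. Among the called antiviral genes 30 in each maternal group changed by at least 2-fold, and 12 (control) and 10 (MIA) by at least 8-fold. The shares of all genes that changed by these sizes were not counted. For 32 of the 40 genes in each maternal group every LPS library of batch 1 lay above every saline library, which held for 15.1% (control) and 18.5% (MIA) of all genes. Summed over the 41 genes, the level was 428 to 523 CPM after saline and 1254 to 1824 CPM after LPS in batch 1. Both LPS responses are against saline libraries of their own maternal group and share none.

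**Figure D1:**
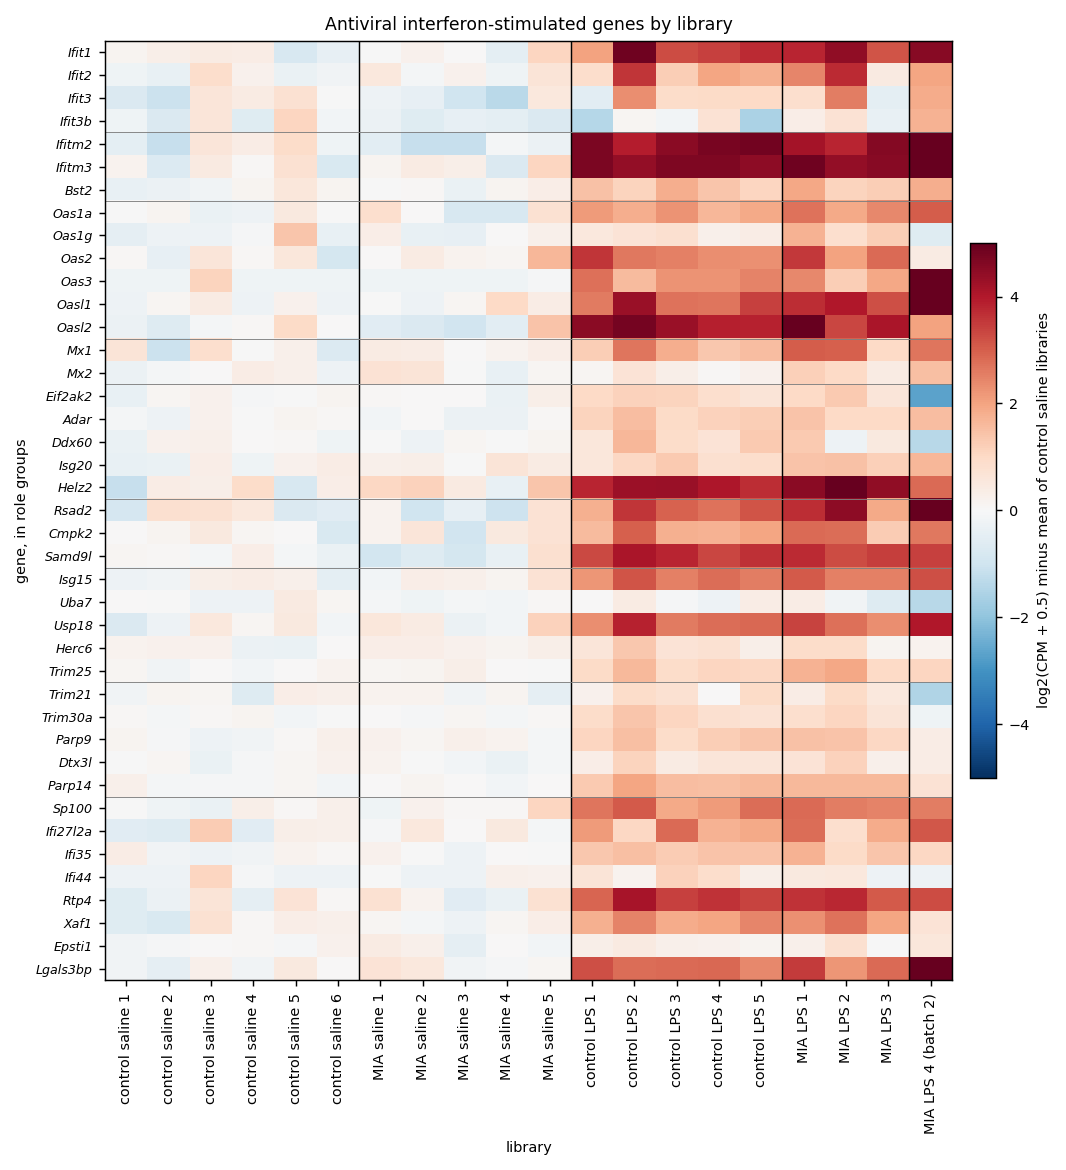
Heat map of the antiviral genes (rows, grouped by role) in 20 libraries (columns, by group); colour gives log2(CPM + 0.5) minus the mean of the control saline libraries, and colours end at 5 log2 units. The LPS columns are raised for most rows in both maternal groups, while Uba7, Epsti1, Mx2 and Ifit3b stay near the saline level in control offspring.

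The IFIT proteins bind viral RNA that lacks the methylation of host caps and keep it from being translated. Of the 4 genes, which lie side by side on chromosome 19, 2 rose in control and 3 in MIA offspring. After saline, Ifit1 stood at 0.466, 1.45 and 1.74 CPM (lowest, median and highest of 6 control libraries) and at 1.14, 1.45, 1.22, 0.688 and 3.06 CPM in the 5 MIA libraries. After LPS it stood at 6.28, 48.1, 15.5, 17.6 and 21.7 CPM in control replicates 1 to 5 and at 22.9, 35.9 and 14.4 CPM in MIA replicates 1 to 3. The LPS and saline libraries did not overlap, and control LPS replicate 2 was far above the other control LPS libraries. The log2 fold change was 4.12 ± 0.48 (SE) in control offspring (adjusted p = 1.23e-06) and 3.99 ± 0.54 in MIA offspring (adjusted p = 1.04e-05).

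Ifit2, whose product also restricts viral replication in neurons, had its highest and lowest levels in the same LPS libraries as Ifit1. In control LPS libraries it stood at 6.39, 44.2, 8.31, 14.1 and 12.3 CPM, against 2.41, 2.75 and 6.39 CPM (lowest, median, highest) after saline. In the MIA LPS libraries it stood at 19.8, 49.3 and 4.56 CPM, so that replicate 3 lay inside the saline range of 2.68 to 5.33 CPM. On the log2 scale the change was 2.33 ± 0.56 in control and 2.64 ± 0.64 in MIA offspring, and both were called. Without control LPS replicate 2 the control value was 1.59 and still called, and without MIA LPS replicate 2 the MIA value was 1.62 and no longer called.

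Ifit3 and its copy Ifit3b share many sequences, so their counts are uncertain: 51.2% of the 50-base stretches of Ifit3 also occur in Ifit3b, and the promoter stretches printed above are the same. Ifit3 stood at 0.936, 2.97 and 4.55 CPM (lowest, median, highest) in control saline and at 1.57, 14.5, 5.09, 5.23 and 5.45 CPM in control LPS libraries. Its MIA levels were 2.02, 1.77, 1.01, 0.688 and 3.80 CPM after saline and 4.90, 16.9 and 1.65 CPM after LPS. Replicate 2 was the highest LPS library in both maternal groups, and 1 library in each overlapped the saline range. Its log2 fold change was 1.19 ± 0.59 in control offspring, which was not called (adjusted p = 0.115), and 2.07 ± 0.71 in MIA offspring (adjusted p = 0.0281). The MIA call was lost under 7 of 32 alternatives, among them leaving out MIA LPS replicate 2 (0.80) or MIA saline replicate 2 (2.05), 3 (1.91) or 4 (1.85). Leaving out control LPS replicate 1 gave 1.45 in control offspring, then called.

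Ifit3b was not called in either maternal group. Its control values were 0.401, 0.821 and 2.62 CPM (lowest, median, highest) after saline and 0.0542, 1.08, 0.831, 1.94 and 0 CPM after LPS. Its MIA values were 0.701, 0.482, 0.608, 0.551 and 0.400 CPM after saline and 1.35, 1.95 and 0.660 CPM after LPS. In control offspring it was the only tested gene of the list with a negative log2 fold change, -0.55 ± 0.65 (adjusted p = 0.521), and in MIA offspring the value was 1.26 ± 0.78 (adjusted p = 0.212). Without control LPS replicate 4 the control value was -1.24, also not called.

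The membrane restriction factors act on virus entry and release, and all 3 rose in both maternal groups. Ifitm3, which blocks the fusion of virus with the endosome membrane, stood at 0.542, 1.39 and 2.45 CPM (lowest, median, highest) in control saline and at 45.0, 36.4, 44.3, 44.4 and 37.9 CPM in control LPS libraries. In MIA libraries it stood at 1.40, 1.85, 1.62, 0.551 and 3.20 CPM after saline and at 50.6, 35.9 and 40.5 CPM after LPS. The LPS libraries lay close together, with a highest level 1.24 times the lowest in control offspring. LPS changed it by a log2 value of 4.88 ± 0.30 in control offspring (adjusted p = 9.48e-12) and 4.60 ± 0.33 in MIA offspring (adjusted p = 2.72e-10).

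Ifitm2, a related entry inhibitor, was nearly absent after saline. It stood at 0, 0.693 and 1.57 CPM (lowest, median, highest) in control saline and at 28.4, 16.6, 24.7, 29.7 and 30.5 CPM in control LPS libraries. The MIA libraries held 0.263, 0, 0, 0.551 and 0.400 CPM after saline and 19.2, 15.1 and 26.5 CPM after LPS. Control LPS replicate 2, high for Ifit1 and Ifit2, was the lowest control LPS library here, and the groups did not overlap. The log2 fold change was 5.11 ± 0.44 in control and 6.30 ± 0.58 in MIA offspring (adjusted p = 1.04e-08 and 4.62e-08). Of the 50-base stretches of Ifitm2, 48.5% occur in other genes, mostly Gm45717, so its counts are uncertain.

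Bst2 (tetherin), which holds budding virions at the cell surface, had the highest level per length of the list at rest. It stood at 15.2, 19.4 and 29.4 CPM (lowest, median, highest) in control saline and at 54.3, 43.3, 69.4, 51.4 and 42.1 CPM in control LPS libraries. Levels in MIA offspring were 19.1, 20.5, 15.4, 21.7 and 24.7 CPM after saline and 76.9, 43.4 and 47.2 CPM after LPS. The response was uniform and without overlap, at a log2 fold change of 1.37 ± 0.18 in control and 1.46 ± 0.21 in MIA offspring (adjusted p = 7.06e-07 and 4.44e-06).

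The OAS enzymes sense double-stranded RNA and make a messenger that leads to RNA decay; the OAS-like proteins Oasl1 and Oasl2 are relatives that act on RNA sensing and translation. Of the 6 genes, all on chromosome 5, 5 rose in control and 6 in MIA offspring. Oasl1 had the largest fold change of the list in control offspring. It stood at 0, 0.0668 and 0.278 CPM (lowest, median, highest) in control saline and at 3.03, 11.1, 3.32, 3.28 and 5.85 CPM in control LPS libraries. Its MIA levels were 0.0877, 0, 0.135, 0.688 and 0.266 CPM after saline and 7.19, 8.83 and 4.95 CPM after LPS. No LPS library of batch 1 overlapped the saline libraries. On the log2 scale the change was 5.63 ± 0.59 in control and 4.78 ± 0.59 in MIA offspring (adjusted p = 4.25e-08 and 7.99e-07), and without MIA saline replicate 4 the latter was 5.66.

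Oasl2 had the highest mean CPM of the OAS genes after LPS. It stood at 0.802, 1.47 and 3.44 CPM (lowest, median, highest) in control saline and at 45.3, 55.5, 39.8, 29.5 and 28.5 CPM in control LPS libraries. In MIA libraries it stood at 0.877, 0.723, 0.540, 0.895 and 4.86 CPM after saline and at 62.8, 20.1 and 33.5 CPM after LPS. MIA saline replicate 5 was above the other 4, yet well under every LPS library. It changed on the log2 scale by 4.57 ± 0.49 in control and 4.57 ± 0.56 in MIA offspring (adjusted p = 5.37e-07 and 3.8e-06), and without that library the MIA value was 5.67.

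Oas2 and Oas3 rose from near 0. Oas2 went from a mean of 0.482 ± 0.359 CPM (SD, n = 6) to 5.71 ± 2.67 CPM (SD, n = 5) in control offspring and from 0.916 ± 0.835 (SD, n = 5) to 6.42 ± 3.46 CPM (SD, n = 3) in MIA offspring. Its log2 fold changes were 3.52 ± 0.52 and 2.77 ± 0.56, and without MIA saline replicate 5 the latter was 3.53. Oas3 had 11 estimated counts in control saline, all in replicate 3, and 1 in MIA saline, in replicate 5, against 175 and 69 after LPS. Its log2 fold change was 4.19 ± 0.69 in control offspring (adjusted p = 2.49e-05); without control saline replicate 3 all saline libraries were at 0, and the fitted value of 8.08 depends on the prior count and is no bound. In MIA offspring the ratio of summed counts per depth was 115, with an exact 95% interval of 20.03 to 4622 that covers counting error only.

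Oas1a and Oas1g are near-identical copies, and 57.6% of the 50-base stretches of Oas1a occur in Oas1g. Oas1a rose from a mean of 3.52 ± 0.846 CPM (SD, n = 6) to 14.9 ± 2.49 CPM (SD, n = 5) in control offspring, and its log2 fold change in MIA offspring was 2.34 ± 0.32. Oas1g was near the detection limit, at 0.0565, 0.136 and 1.46 CPM (lowest, median, highest) in control saline and 0.596, 0.721, 0.831, 0.402 and 0.481 CPM in control LPS libraries. The MIA libraries held 0.438, 0.0803, 0.0675, 0.275 and 0.400 CPM after saline and 2.03, 0.868 and 1.25 CPM after LPS. A single control saline library, replicate 5, lay above all control LPS libraries. The log2 fold change of 0.73 ± 0.67 in control offspring was not called (adjusted p = 0.402), while without that library it was 2.19 and called. In MIA offspring it was 2.42 ± 0.79 (adjusted p = 0.0169), and without MIA LPS replicate 1 it was 2.05, no longer called.

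The MX proteins are dynamin-like enzymes that trap viral nucleocapsids. Mx1 rose by a log2 fold change of 1.89 ± 0.40 in control and 2.57 ± 0.47 in MIA offspring. Mx2, annotated as a polymorphic pseudogene, had the higher CPM, at 8.75, 10.4 and 13.8 CPM (lowest, median, highest) in control saline and at 11.5, 17.5, 13.1, 11.3 and 12.6 CPM in control LPS libraries. Levels in MIA offspring were 17.8, 17.1, 10.6, 8.12 and 11.5 CPM after saline and 25.2, 22.1 and 14.3 CPM after LPS. The groups overlapped in both maternal groups. Its log2 fold change was 0.28 ± 0.20 in control offspring, not called (adjusted p = 0.262), and 0.66 ± 0.23 in MIA offspring (adjusted p = 0.0273). The MIA call was lost without any 1 of MIA LPS replicates 1 and 2 and MIA saline replicates 3, 4 and 5, with log2 fold changes of 0.48 to 0.61.

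**Figure D2:**
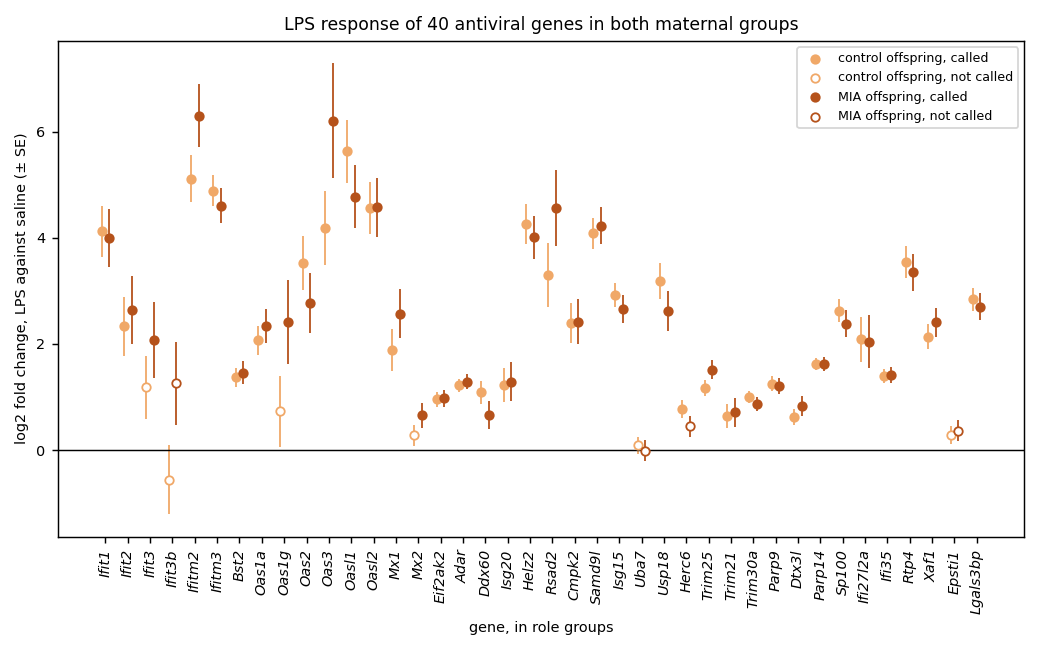
Log2 fold change (LPS against saline, ± SE) of the 40 tested genes in control and MIA offspring; open symbols are not called at an adjusted p under 0.05. Values run from -0.55 (Ifit3b, control offspring) to 6.30 (Ifitm2, MIA offspring), and the open symbols are Ifit3b, Uba7 and Epsti1 in both maternal groups, Ifit3, Oas1g and Mx2 in control and Herc6 in MIA offspring.

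Genes for RNA sensing, editing and decay rose in both maternal groups, all 5 of 5. Adar, the enzyme that edits adenosine to inosine in double-stranded RNA, had the highest mean CPM of them after LPS. It stood at 24.9, 30.3 and 34.4 CPM (lowest, median, highest) in control saline and at 65.7, 87.5, 59.2, 67.4 and 70.3 CPM in control LPS libraries. Its MIA levels were 27.5, 30.0, 24.3, 24.0 and 31.4 CPM after saline and 81.5, 60.8 and 59.4 CPM after LPS. Its levels more than doubled without overlap, with a log2 fold change of 1.22 ± 0.12 in control and 1.29 ± 0.15 in MIA offspring (adjusted p = 9.36e-09 and 9.38e-08).

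Eif2ak2, the gene of the kinase PKR that stops translation on double-stranded RNA, changed by nearly the same amount, 0.96 ± 0.14 in control and 0.98 ± 0.16 in MIA offspring. Helz2, a helicase and nuclear receptor coactivator, had the largest change of these 5, at 4.26 ± 0.37 and 4.01 ± 0.40, from a mean of 1.73 ± 1.07 CPM (SD, n = 6) to 32.2 ± 6.21 CPM (SD, n = 5) in control offspring. Isg20, an exonuclease, stayed low at means of 2.17 ± 0.498 (control, SD, n = 5) and 3.06 ± 0.368 CPM (MIA, SD, n = 3) after LPS. Ddx60, a helicase tied to RNA sensing, rose by 1.09 ± 0.22 in control offspring. In MIA offspring its value was 0.66 ± 0.26 (adjusted p = 0.0474), and MIA LPS replicate 2, at 10.9 CPM, lay below the lowest MIA saline library, at 11.0 CPM. That call was lost under 24 of 32 alternatives. Without MIA LPS replicate 1, at 33.1 CPM, the MIA value was 0.18.

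Genes of nucleotide supply and translation control rose 3 of 3 in both maternal groups. Samd9l, which restrains translation and growth, stood at 0.929, 1.26 and 1.77 CPM (lowest, median, highest) in control saline and at 16.8, 30.0, 24.4, 17.6 and 21.7 CPM in control LPS libraries. In MIA libraries it stood at 0.438, 0.643, 0.473, 0.895 and 2.60 CPM after saline and at 22.8, 16.8 and 19.1 CPM after LPS. No libraries overlapped, and the log2 fold change was 4.08 ± 0.29 in control and 4.23 ± 0.34 in MIA offspring (adjusted p = 2.77e-11 and 5.1e-10). Without MIA saline replicate 5 the MIA value was 4.96.

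Rsad2 encodes viperin, which makes a chain-terminating nucleotide, and Cmpk2, its neighbour on chromosome 12, encodes the kinase that supplies viperin's substrate. Rsad2 stood at 4.01, 15.0, 9.45, 7.98 and 11.1 CPM in control LPS and at 16.6, 28.3 and 4.36 CPM in MIA LPS libraries, against at most 1.80 CPM in any saline library. Cmpk2 stood at 5.20, 14.6, 6.02, 5.83 and 6.89 CPM and at 13.1, 12.8 and 4.09 CPM in the same libraries. In both genes control replicates 1 and 2 were the lowest and highest of the control LPS libraries, and MIA replicate 3 was the lowest MIA LPS library. Rsad2 changed by 3.30 ± 0.60 and 4.56 ± 0.72, and Cmpk2 by 2.40 ± 0.37 and 2.42 ± 0.43, in control and MIA offspring on the log2 scale. The Rsad2 value in MIA offspring was 3.90 without MIA LPS replicate 2 and 5.26 without MIA saline replicate 5, called in both.

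The ISG15 pathway attaches a ubiquitin-like protein, ISG15, to other proteins and removes it again. The modifier Isg15 rose by 2.92 ± 0.23 in control and 2.65 ± 0.26 in MIA offspring on the log2 scale, from at most 3.46 CPM in any saline library to 10.5, 20.9, 13.3, 16.2 and 13.9 CPM in control LPS and 19.9, 13.4 and 13.3 CPM in MIA LPS libraries. Usp18, the protease that removes ISG15 and also shields the interferon receptor, rose by 3.19 ± 0.33 and 2.62 ± 0.38. In control LPS libraries Usp18 stood at 12.5, 36.9, 15.2, 17.7 and 18.3 CPM, with replicate 2 again apart. Trim25, a ligase of this pathway and of RIG-I signalling, rose by 1.17 ± 0.15 and 1.51 ± 0.18.

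Uba7, the enzyme that activates ISG15, was not called in either maternal group. It had the highest CPM of the pathway at rest, at 35.7, 42.7 and 59.1 CPM (lowest, median, highest) in control saline, and stood at 43.5, 57.2, 40.9, 35.8 and 55.2 CPM in control LPS libraries. The MIA libraries held 39.8, 37.0, 40.6, 39.1 and 45.0 CPM after saline and 55.5, 38.0 and 27.0 CPM after LPS. The ranges overlapped throughout, and the log2 fold change was 0.09 ± 0.16 in control and -0.01 ± 0.19 in MIA offspring (adjusted p = 0.676 and 0.984).

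Herc6, the ligase that completes the transfer of ISG15 in mice, was called in control and not in MIA offspring. It stood at 16.3, 22.3 and 24.3 CPM (lowest, median, highest) in control saline and at 31.5, 53.6, 33.8, 35.1 and 25.5 CPM in control LPS libraries. Levels in MIA offspring were 26.2, 25.95, 24.3, 22.9 and 25.4 CPM after saline and 39.5, 39.6 and 23.0 CPM after LPS. The control groups did not overlap, whereas MIA LPS replicate 3 lay within the MIA saline range. The log2 fold change was 0.77 ± 0.17 (adjusted p = 0.00045) and 0.45 ± 0.20 (adjusted p = 0.0793), and the 2 responses were not called different by the test of their difference. Without MIA LPS replicate 3 the MIA value was 0.66 and called, and without control LPS replicate 2 it was also called, at 0.45.

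**Figure D3:**
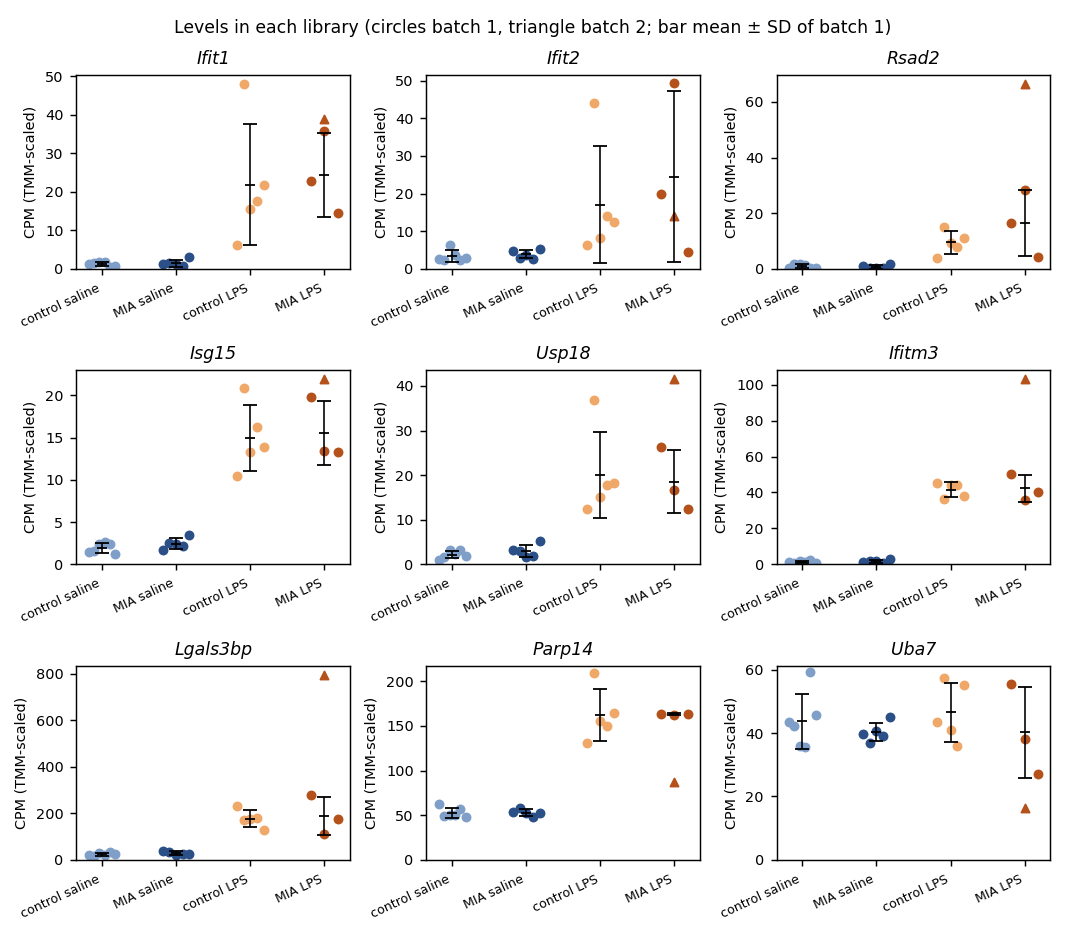
Level in CPM of 9 antiviral genes in each library by group; points are libraries of batch 1, triangles the batch 2 library, and bars the mean ± SD of batch 1. Ifit1, Ifit2 and Usp18 have 1 control LPS library far above the rest, while Ifitm3 and Parp14 lie close together and Uba7 does not separate by treatment.

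The TRIM, PARP and E3 ligase factors rose in both maternal groups, 5 of 5, by log2 fold changes of 0.63 to 1.62. Parp14, an ADP-ribosyltransferase, stood at 47.5, 50.2 and 62.4 CPM (lowest, median, highest) in control saline and at 131, 209, 155, 149.8 and 164 CPM in control LPS libraries. Its MIA levels were 53.7, 58.0, 52.6, 48.3 and 52.7 CPM after saline and 164, 162 and 163 CPM after LPS. The groups were far apart and the MIA LPS libraries nearly equal, with a log2 fold change of 1.62 ± 0.11 in control and 1.62 ± 0.13 in MIA offspring (adjusted p = 1.42e-11 and 4.83e-10).

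Trim30a, a regulator of Toll-like receptor signalling, stood at 48.4, 54.2 and 58.9 CPM (lowest, median, highest) in control saline and at 103, 139.8, 112, 94.0 and 89.9 CPM in control LPS libraries. In MIA libraries it stood at 54.4, 51.2, 57.5, 49.8 and 55.8 CPM after saline and at 96.0, 113 and 84.9 CPM after LPS. It about doubled without overlap, at 1.00 ± 0.11 and 0.87 ± 0.14 on the log2 scale. Parp9 and Dtx3l, whose proteins form a complex, rose by 1.26 ± 0.13 and 0.63 ± 0.15 in control offspring and by 1.21 ± 0.16 and 0.83 ± 0.18 in MIA offspring. Their genes overlap by 682 bases on opposite strands, and as the use of strand in counting is not given, reads from the overlap cannot be told apart. Trim21, the cytosolic antibody receptor, had the weakest calls of the group, 0.64 ± 0.23 in control (adjusted p = 0.0267) and 0.71 ± 0.28 in MIA offspring (adjusted p = 0.0458). Its control call was lost without any 1 of control LPS replicates 2, 3 and 5 and control saline replicates 1 and 4, with values of 0.53 to 0.59, and its MIA call under 17 of 32 alternatives.

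Among the other interferon-induced genes 6 of 7 tested rose in both maternal groups. Lgals3bp, a secreted glycoprotein that binds galectins, stood at 17.8, 22.9 and 34.0 CPM (lowest, median, highest) in control saline and at 231, 173, 174, 180.1 and 130.5 CPM in control LPS libraries. The MIA libraries held 39.2, 34.9, 21.2, 23.5 and 26.1 CPM after saline and 277, 113 and 177 CPM after LPS. It did not overlap between treatments, and MIA LPS replicate 1 was the highest library. On the log2 scale the change was 2.84 ± 0.22 in control and 2.70 ± 0.25 in MIA offspring (adjusted p = 2.38e-10 and 8.44e-09).

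Ifi35, which binds the factor Nmi, stood at 19.6, 22.5 and 30.2 CPM (lowest, median, highest) in control saline and at 59.8, 67.5, 56.6, 63.1 and 64.3 CPM in control LPS libraries. Levels in MIA offspring were 27.4, 23.1, 19.7, 23.5 and 22.8 CPM after saline and 78.5, 46.2 and 61.9 CPM after LPS. Its control LPS libraries were the closest of the list, with the highest 1.19 times the lowest, and its change was 1.40 ± 0.13 and 1.41 ± 0.16 on the log2 scale. Rtp4, a receptor transporter that restricts RNA viruses, rose the most of this group in both maternal groups, by 3.54 ± 0.31 and 3.35 ± 0.35. Sp100, a nuclear body protein, rose by 2.63 ± 0.22 and 2.38 ± 0.25, and the apoptosis factor Xaf1 by 2.13 ± 0.23 and 2.41 ± 0.27. Ifi27l2a, which encodes a small hydrophobic protein, rose by 2.09 ± 0.42 and 2.05 ± 0.49 from means of 2.04 ± 1.53 (control, SD, n = 6) and 2.09 ± 0.570 CPM (MIA, SD, n = 5). Without MIA LPS replicate 1 the MIA value was 1.41, still called.

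Epsti1, an interferon-response gene of macrophages, was not called. It stood at 9.82, 10.8 and 12.9 CPM (lowest, median, highest) in control saline and at 13.8, 15.3, 13.4, 12.7 and 12.3 CPM in control LPS libraries. Its MIA levels were 14.6, 13.2, 7.97, 11.2 and 10.1 CPM after saline and 13.4, 19.7 and 11.0 CPM after LPS. The ranges met at their edges in control offspring and overlapped widely in MIA offspring, with log2 fold changes of 0.29 ± 0.16 and 0.37 ± 0.20 (adjusted p = 0.158 and 0.144).

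Levels of different genes can be compared per kilobase of transcript. In control saline libraries Bst2 (22.3 CPM per kilobase), Ifi35 (13.7) and Trim30a (13.1) were the highest. After LPS in control offspring the order was headed by Lgals3bp (62.4 CPM per kilobase), Ifitm3 (61.4) and Bst2 (57.7), which did not differ beyond their spread. Ifitm3 rose from the middle of the order at rest, while Bst2 was high in both states.

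**Figure D4:**
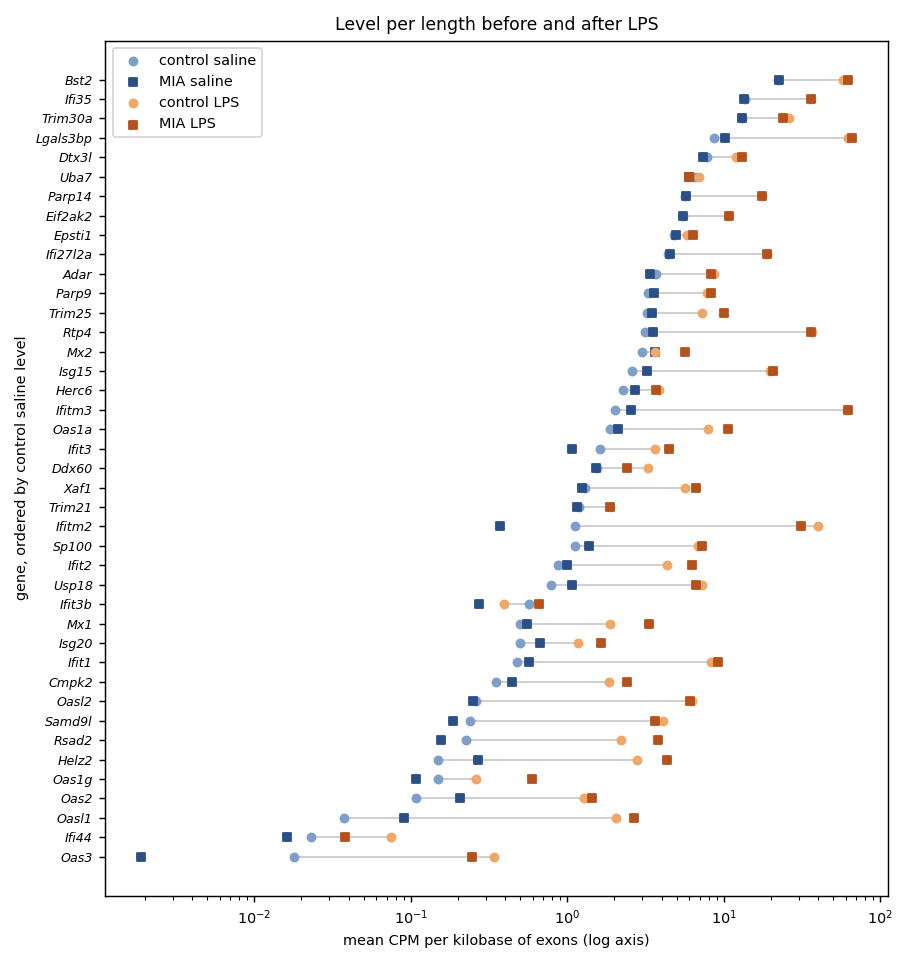
Mean level per kilobase of each antiviral gene (CPM per kilobase, log axis) in the 4 groups. Lgals3bp, Ifitm3 and Bst2 head the LPS groups at about the same level, while Oas1g and Oas3 are low in all 4 groups.

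Many antiviral genes had their highest or lowest level in the same LPS library. Control LPS replicate 2 was the highest of the 5 control LPS libraries for 27 of 40 antiviral genes, against 18.4% of all genes tested and 17.2% of the genes called higher with LPS. Control LPS replicate 1 was the lowest for 16 of 40, against 20.8% of all genes. Among the 3 MIA LPS libraries replicate 3 was the lowest for 25 of 40, against 27.7% of all genes, and replicate 1 was the highest for 22 of 40, against 32.8%. MIA replicate 2 was the highest for 17 and the lowest for 14 of 40, against 38.5% and 40.8% of all genes. In the control LPS libraries 13 genes, among them Bst2, Helz2, Oas1a, Oas2 and Lgals3bp, had a highest library other than replicate 2. For Ifitm2 and Ifitm3 control LPS replicate 2 was the lowest of the 5. The monocyte markers summed to 25.6 CPM and the neutrophil markers to 62.7 CPM in control LPS replicate 2, both inside the range of the other control LPS libraries, and its microglial sum of 4936 CPM was the lowest of that group. In MIA LPS replicate 3 the monocyte sum of 20.7 and the neutrophil sum of 35.5 CPM were the lowest of the 3 libraries. With replicate 2 left out of both LPS groups, 33 antiviral genes were higher in each maternal group and 0 lower, and the median log2 fold change was 1.56 in control and 2.21 in MIA offspring. Trim21 lost its call in both maternal groups, and Ifit3 and Mx2 in MIA offspring.

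**Figure D5:**
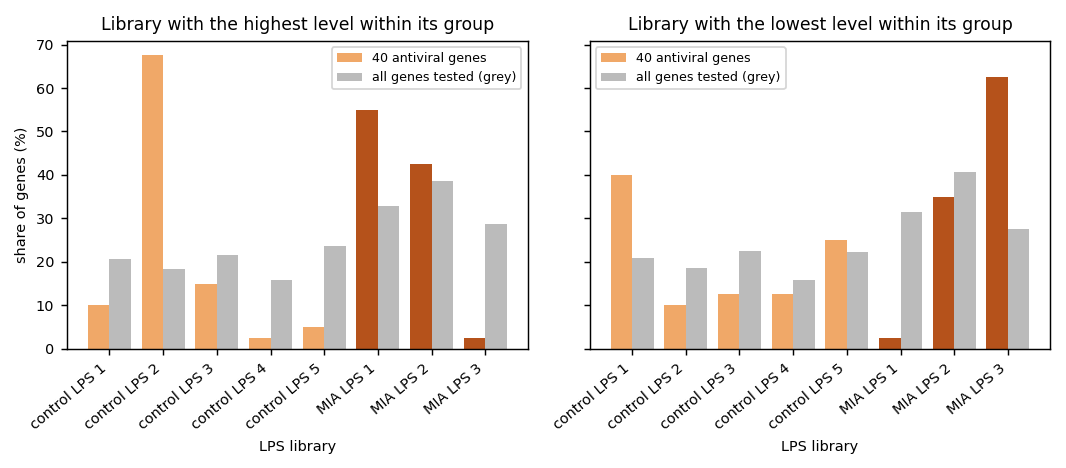
Share (%) of the 40 antiviral genes for which each LPS library of batch 1 held the highest or the lowest level of its group, beside the same share over all genes tested (grey). Control replicate 2 is the highest for 27 of 40 genes, and MIA replicate 3 the lowest for 25 of 40.

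Some saline libraries stood apart for several genes at a time. MIA saline replicate 5 lay apart from the other MIA saline libraries for Oas2, Oasl2, Samd9l and Sp100. Its neutrophil markers summed to 0.200 CPM, in a group that ranged from 0.200 to 0.321 CPM. Control saline replicate 3 lay apart for Ifit2, Oas3, Ifi27l2a and Ifi44, with a neutrophil sum of 4.38 CPM, and control saline replicate 5 for Oas1g and Oasl2, with a sum of 11.1 CPM. The part of neutrophils in these values was not tested. Across the antiviral genes the median SD of log2 CPM between control saline libraries was 0.44, against 0.32 over all genes, and between MIA saline libraries 0.36 against 0.28. The genes were not matched for level. In control saline the SD was 1.32 for Ifitm2 and 1.12 for Rsad2, which had few counts, although Samd9l, also low, had 0.28. For the abundant Trim30a and Parp14 it was 0.11 and 0.15. Between LPS libraries the median SD was 0.35 against 0.32 in control and 0.44 against 0.42 in MIA offspring.

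The comparison of MIA with control offspring asks whether the maternal treatment altered the antiviral genes at rest or their answer to LPS. After saline none of the 40 was called, with 0% of all 14741 genes called higher and 0% lower by edgeR. At an unadjusted p under 0.05 there were 2 antiviral genes and 415 genes in all, and DESeq2 called 3 genes higher and 3 lower, none of the list. The 2 were Ifitm2, with a log2 difference (MIA minus control) of -1.54 ± 0.71, and Helz2, with 0.87 ± 0.40; the median over the list was 0.04. The 95% interval of the difference lay within 2-fold in either direction for 22 of 40 genes. It was narrow for Parp14 (-0.23 to 0.24), Trim30a (-0.24 to 0.23) and Ifi35 (-0.30 to 0.26), and wide for Oas3 (-5.35 to 0.37), Oasl1 (-0.54 to 3.01) and Rsad2 (-2.06 to 1.13).

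After LPS again 0 of 40 were called in MIA against control offspring, with 0% of all genes called in either direction, while 2 antiviral genes and 825 genes in all had an unadjusted p under 0.05, and DESeq2 called 0. Mx2 differed by 0.63 ± 0.23 (unadjusted p = 0.0117, adjusted p = 0.759) and Trim25 by 0.46 ± 0.18 (unadjusted p = 0.0158, adjusted p = 0.812). For 2 of 40 genes, Oas1g and Helz2, every MIA LPS library of batch 1 lay above every control LPS library, which held for 1.28% of all genes. The median difference was 0.08, and the 95% interval lay within 2-fold for 23 of 40. Intervals were narrow for Parp14 (-0.27 to 0.29), Trim30a (-0.42 to 0.15) and Adar (-0.36 to 0.24), and for Ifit1 the interval was -0.86 to 1.17. With only 3 MIA LPS libraries, differences of any size within these intervals remained possible.

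The difference between the 2 LPS responses was tested directly. It was called for 0 of 40 genes (0% of all genes in either direction), 0 antiviral genes and 491 genes in all had an unadjusted p under 0.05, and DESeq2 called 0. The median of the difference (MIA minus control) was 0.02. For 26 of 40 genes the 95% interval left out a response in MIA offspring 2-fold or more below that in control offspring (a log2 difference of -1), and for 22 it left out 1 at least 2-fold above. Parp14 had the estimate 0.00 (-0.36 to 0.37), Adar 0.07 (-0.32 to 0.47), Ifi35 0.01 (-0.42 to 0.45) and Isg15 -0.27 (-0.99 to 0.45). The genes with few counts at rest had wide intervals, such as Oasl1 at -0.85 (-2.81 to 1.11) and Ifitm2 at 1.19 (-0.54 to 2.91). The genes called in only 1 maternal group, Herc6 on the control side and Ifit3, Oas1g and Mx2 on the MIA side, were thus not shown to differ between them.

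The genes upstream of the antiviral set were followed in lists of ligands, receptors, kinases and factors. Of 10 interferon ligands 8 were at 0 in all control saline libraries, and none had enough reads for the test. Interferon beta (Ifnb1) had 0, 1, 11, 1 and 5 estimated counts in control LPS replicates 1 to 5 and 1, 8 and 0 in MIA LPS replicates 1 to 3, against 0 in all control saline libraries and 1, 4, 0, 0 and 1 in the MIA saline libraries. Control LPS replicate 2, highest for most antiviral genes, had 1 count. Of 5 tested receptor subunits Ifngr2 was called higher in control offspring (0.43 ± 0.13) and was not called in MIA offspring (0.29 ± 0.15). The 2 responses of Ifngr2 were not called different. In MIA offspring 0 subunits were called, and 0 of 3 JAK kinases were called in either maternal group. Ifnar1 had log2 fold changes of 0.01 ± 0.10 in control and -0.01 ± 0.12 in MIA offspring.

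Of 7 STAT and IRF genes 5 were higher and 0 lower in both maternal groups. Stat2 changed by 2.44 ± 0.19 in control and 2.63 ± 0.22 in MIA offspring, and its partner Irf9 by 0.99 ± 0.10 and 1.15 ± 0.12 on the log2 scale. Irf7, which amplifies interferon production, had the largest change of the list, 3.45 ± 0.27 and 3.80 ± 0.32, while Irf3 and Irf8 were not called. Of the 6 genes between TLR4 and interferon the kinase Tbk1 was higher in both (0.46 ± 0.12 and 0.60 ± 0.14). Ikbke was called higher in control offspring (0.76 ± 0.28) and was not called in MIA offspring, at a similar 0.72 ± 0.34. Tlr4 itself was called lower in MIA offspring (-0.75 ± 0.17) and was not called in control offspring (-0.19 ± 0.14). For neither Ikbke nor Tlr4 was the difference of the 2 responses called (-0.04 ± 0.45 and -0.56 ± 0.21). Among 6 partners and restraints Socs3, an inhibitor of cytokine signalling, was higher in both (1.40 ± 0.17 and 1.57 ± 0.20).

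The batch 2 library, MIA LPS replicate 4, was above the 3 MIA LPS libraries of batch 1 for 15 of the 40 antiviral genes, below for 12 and within their range for 13; of all genes 30.1% were above and 48.2% below. It held 796 CPM of Lgals3bp, 51.3 of Oasl1, 30.5 of Oas3 and 103 of Ifitm3, each above every batch 1 library. In contrast Eif2ak2 (3.96 CPM), Oasl2 (7.56 CPM) and Oas2 (0.720 CPM) were below all MIA LPS libraries of batch 1. Its neutrophil markers summed to 407 CPM and its monocyte markers to 104 CPM, above every other library, and their part in these values was not tested. As batch 2 holds this library alone, batch and library cannot be told apart.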

How the data were processed

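Each library was made from sorted cells with a Smart-Seq2 protocol that primes on poly(A), per the labels' protocols. The authors deposited a table of estimated counts per gene with Ensembl identifiers; the submitters' processing notes name STAR, RSEM and DESeq2. The build, the annotation and the use of strand were not given in the sources used here. Symbols, lengths and coordinates came from GENCODE M21 (55227 of 55487 identifiers matched). The estimated counts were rounded to whole numbers (6.27% of values were not whole) and filtered with filterByExpr, after which 14741 genes (99.9% of the counts) remained. A single gene, CT010467.1, held 48.1% of all counts. Levels are CPM with TMM factors. Tests were edgeR 4.0.16 quasi-likelihood tests (R 4.3.3) with a term for each of the 4 groups and 1 for batch, and 15 residual degrees of freedom. The p-values had Benjamini-Hochberg adjustment over all genes tested and were called at 0.05. On counts simulated for LPS in control offspring (14422 genes, 200 changed) the test recovered 66.7% of changes of 1 log2 unit and 94.5% of changes of 2. In the data far more genes were called (3439 higher and 3141 lower), so these shares need not hold there. Comparisons that use MIA libraries were not simulated. Other tools were DESeq2 1.42.0 and limma 3.58.1. The median standard error of a log2 difference was 0.22 for LPS in control, 0.27 for LPS in MIA offspring and 0.34 for the difference of responses. Reads were PCR-amplified without molecular identifiers, so counting intervals cover counting error only. No 2 replicates were alike within sampling noise (chi-square over its degrees of freedom of at least 9.58).

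The genes, role groups, pathway and marker lists were chosen with earlier results of these data known. Values are given by library for the 3 genes with the largest and the 3 with the smallest LPS change in control offspring, those not called for LPS in a maternal group, the 3 highest per kilobase at rest and the most abundant of each role group. The other per-library values, of Ifit2, Rsad2, Cmpk2, Isg15 and Usp18, were chosen after seeing them. Libraries of different groups with the same replicate number did not deviate together (median correlation 0.03, from -0.14 to 0.22, over 24 pairs), so the fit has no replicate term. The replicate number is not known to mark a shared origin. No such correlation was computed for the number shared in the ID label, so the check does not bear on that number.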

Additional observations from a re-analysis of the deposited data

Results flagged for a closer look

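In 123 groups of 5 or 6 libraries, 16 held a library whose level stood apart from all the others by Dixon's test; chance flags about 1 in 20 groups, and the genes are not independent. In control LPS replicate 2 these were Ifit2 at 44.2 CPM (others 6.39 to 14.1), Cmpk2 at 14.6 CPM, Usp18 at 36.9 CPM and Trim25 at 58.4 CPM. In control LPS replicate 1 it was Oas2 at 10.4 CPM (others 4.01 to 5.29).

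MIA saline replicate 5 stood apart for Oas2 at 2.40 CPM, Oas3 at 0.0666 CPM (1 count, against 0 in the other 4), Oasl2 at 4.86 CPM, Samd9l at 2.60 CPM and Sp100 at 17.8 CPM. Control saline replicate 3 did for Ifit2 at 6.39 CPM, Oas3 and Ifi44 at 0.764 CPM each and Ifi27l2a at 4.93 CPM. Control saline replicate 5 did for Oas1g at 1.46 CPM and Oasl2 at 3.44 CPM. In all 16 the library was above the others of its group.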

How the results depend on the processing

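The counts of called antiviral genes kept their size under every alternative run. Across the 12 alternatives for LPS in control offspring that leave out no single replicate, 32 to 35 genes were higher, and for LPS in MIA offspring 32 to 36; 0 were lower in any. Leaving out each library in turn gave 33 to 35 and 32 to 37. With the replicate number as a replicate block 34 (control) and 33 (MIA) were higher, and with the second number of the ID label as a block 34 and 34. The 3 comparisons that involve MIA against control called 0 antiviral genes under every alternative. In MIA offspring the replicate block ended the calls of Mx2 (0.61), Ddx60 (0.66) and Trim21 (0.61), and dropping the batch term those of Eif2ak2 (0.60), Oas1g (2.03), Ddx60 (0.37) and Trim21 (0.39). In limma-voom Oas1g was called in control offspring (1.70), and Ifit2 (1.43) and Ifit3 (1.03) were not in MIA offspring. The cause of these changes was not tested. No gene of the list that was called in the main fit or in an alternative changed sign between them. Genes not called did so in some, such as Uba7 for LPS in MIA offspring (-0.31 to 0.21). The alternative without replicate 2 of both LPS groups was chosen after seeing the data. The block by ID number could not be fitted for MIA against control after saline or LPS. Over all genes, RLE and upper quartile scaling and DESeq2 called more genes lower than higher with LPS, in control offspring 3019, 2957 and 3122 higher against 3578, 3654 and 3741 lower, and in MIA offspring 2734, 2636 and 2814 against 2997, 3094 and 3191. Oas3, Oasl1, Oas1g, Ifit3b, Ifitm2, Oas2 and Rsad2 rest on few counts at rest, and 3 MIA LPS libraries limit the comparisons that use them.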

Other observations

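Antiviral genes next to each other on a chromosome did not always have the same estimated LPS response. The Ifit cluster on chromosome 19 ranged from -0.55 (Ifit3b) to 4.12 (Ifit1) on the log2 scale in control offspring. The overlapping pair Parp9 and Dtx3l had estimates of 1.26 and 0.63. Rsad2 and Cmpk2, which lie 12752 bases apart, had 3.30 and 2.40, with overlapping 95% intervals (2.04 to 4.57 and 1.63 to 3.17). Differences between genes were not tested. The counts of Ifit3b and of the pair Parp9 and Dtx3l are uncertain, as described above. Of the 41 genes 8 had over 10% of their 50-base stretches in common with another gene, and 16 had none.

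The MIA saline library whose title marks it as excluded held 5286086 estimated counts and 0.383 CPM each of Ifitm2 and Ifit3b, the first inside and the second below the range of the other MIA saline libraries.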
